A study of Mus musculus with 6 samples.

Results

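The genes described here are 10 transducers and suppressors of cytokine signals, *Jak1*, *Jak2*, *Stat3*, *Stat5a*, *Stat5b*, *Stat6*, *Socs1*, *Socs2*, *Socs3* and *Cish*, taken by symbol from the 24224 genes of the deposited table. Each symbol had 1 row, and all 10 passed the filter on low counts. RNA was sequenced from type 2 alveolar epithelial (AT2) cells of wild-type mice of the C57/6J strain, as the labels spell it, that had aged naturally to 3 m (young) or 24 m (aged). Cells were gated as CD45- CD31- CD326+ MHCII+ after enzymatic digestion of the lung, and each age had 3 libraries, which the methods call biological replicates and which each pooled cells of several mice. The labels name no altered gene and no drug in either group, and because each library was a pool, the spread between libraries is not the spread between animals.

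In this pathway a cytokine or hormone joins the chains of a receptor whose cytoplasmic tails carry Janus kinases, the kinases phosphorylate the receptor and the STAT proteins that dock on it, and STAT dimers enter the nucleus and switch on genes. Among the genes that STATs induce are the SOCS genes and *Cish*, whose products bind the kinase or the receptor and damp the signal, so that their transcripts are often read as a trace of recent signaling. JAK1 and JAK2 serve many receptors. STAT3 is the main STAT of the IL-6 family and is known in alveolar epithelium for its part in the response to injury, STAT5A and STAT5B act after growth hormone, prolactin and GM-CSF, and STAT6 acts after IL-4 and IL-13.

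Depth was similar in all libraries, 28827930 to 32394985 counts, but replicate 2 at 3 m stood apart. It had a count for 13430 genes, against 16356 to 21836 in the other libraries, and 693 genes had no count there and 20 or more counts in every other library. Mitochondrial genes took 5.62% of its counts, against 2.29% to 3.60% elsewhere. It held the highest or the lowest value of 9 of the 10 genes described here, so the fold changes of these genes are given with and without it. Of the AT2 markers, *Sftpc* (surfactant protein C) was at 51358 to 139127 CPM (counts per 1000000 counts, with totals of the genes kept corrected by TMM), and *Epcam*, which encodes CD326, averaged 163 ± 37.5 CPM in the young and 168 ± 11.5 CPM in the aged libraries (SD, n = 3). The summed CPM of 14 leukocyte markers was 6.80 to 14.7 at 3 m and 23.2 to 110 at 24 m, and *Ptprc*, which encodes CD45, was at 0, 0 and 0.190 CPM at 3 m and at 3.44, 9.59 and 2.38 CPM at 24 m. In bulk RNA, fewer cells of a type and less RNA per cell cannot be told apart.

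The bases ahead of the start of *Socs3* and of *Socs1* are shown because these were the suppressor genes for which all libraries of the ages were apart and for which the window held a motif of the factors upstream of them. The sequences are the 250 bases before the annotated start in RefSeq on GRCm38.p6, an older build than the GRCm39 named for the counts. Capitals mark the match to TTCNNNGAA, the palindromic element that STAT dimers bind, in *Socs3* (chr11:117969367-117969616, minus strand), and the overlapping matches to GAAANNGAAA, an element bound by interferon regulatory factors, in *Socs1* (chr16:10785537-10785786, minus strand).
Socs3: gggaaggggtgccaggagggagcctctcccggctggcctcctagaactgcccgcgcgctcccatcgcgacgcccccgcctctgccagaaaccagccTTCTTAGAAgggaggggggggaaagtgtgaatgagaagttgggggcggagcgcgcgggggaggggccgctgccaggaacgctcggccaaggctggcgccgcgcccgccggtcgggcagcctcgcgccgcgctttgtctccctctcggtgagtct
Socs1: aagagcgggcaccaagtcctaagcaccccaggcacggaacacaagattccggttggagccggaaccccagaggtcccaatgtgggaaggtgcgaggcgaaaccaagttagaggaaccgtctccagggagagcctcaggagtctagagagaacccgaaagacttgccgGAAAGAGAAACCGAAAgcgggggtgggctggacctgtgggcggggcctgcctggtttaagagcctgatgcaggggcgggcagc
The *Socs3* match, TTCTTAGAA, lay 154 to 146 bases before the start. The 2 *Socs1* matches lay 83 to 74 and 77 to 68 bases before the start and share 4 bases. Windows were found for 9 of the 10 genes, with 2 start windows each for *Stat5a* and *Stat5b* and none for *Socs2*. Both strands were searched. Of all 32851 start windows in the table, 7.02% held TTCNNNGAA and 2.98% held GAAANNGAAA, and among the 9 genes only *Socs3* held the former and only *Socs1* the latter. TTCNNNNGAA, the spacing that STAT6 prefers, was in 5.85% of all windows and in none of these genes. A match of letters is a description and shows no binding, and the absence of a match refers only to the window searched.

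The level of each gene was read from the authors' FPKM values, which are scaled to gene length as well as to depth. In these values the implied lengths of *Cish*, *Stat5a*, *Stat3* and *Jak1* were 6419, 7133, 9527 and 7227 bases. Their longest protein-coding transcripts in GENCODE vM21 have 2850, 3888, 6042 and 4906 bases. For *Socs1* and *Jak2* the implied length equalled the longest transcript, 2908 and 5030 bases. The order of genes and the ratios between genes therefore depend on the lengths used. Over the 6 libraries the order by mean FPKM was *Socs3* (68.0 ± 49.3), *Socs2* (32.1 ± 4.29), *Stat3* (31.6 ± 6.64), *Stat6* (30.8 ± 8.54), *Jak1* (19.5 ± 3.17), *Jak2* (17.0 ± 6.40), *Stat5b* (7.68 ± 1.57), *Cish* (4.15 ± 2.28), *Stat5a* (2.08 ± 0.723) and *Socs1* (0.847 ± 0.509). The large SD of *Socs3* came with its place in the order, which was second at 3 m, after *Socs2*, and first at 24 m. The ranges of neighbours in this order overlapped throughout, except that every library had more *Jak2* (lowest 13.2 FPKM) than the highest *Stat5b* level (10.4 FPKM). From the fifth place to the tenth the order by mean was the same at both ages.

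At 24 m *Socs3* was at 116, 135 and 72.2 FPKM, above every library of each of the other 9 genes, of which the highest was *Stat6* at 38.8 FPKM. At 3 m it was at 37.7, 10.2 and 36.5 FPKM, and in replicates 1 and 3 it was close to the highest young *Stat6* level, 37.4 FPKM. *Socs1* was at the opposite end at both ages. The plot of FPKM by gene shows both ends of this order.

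**Figure D1:**
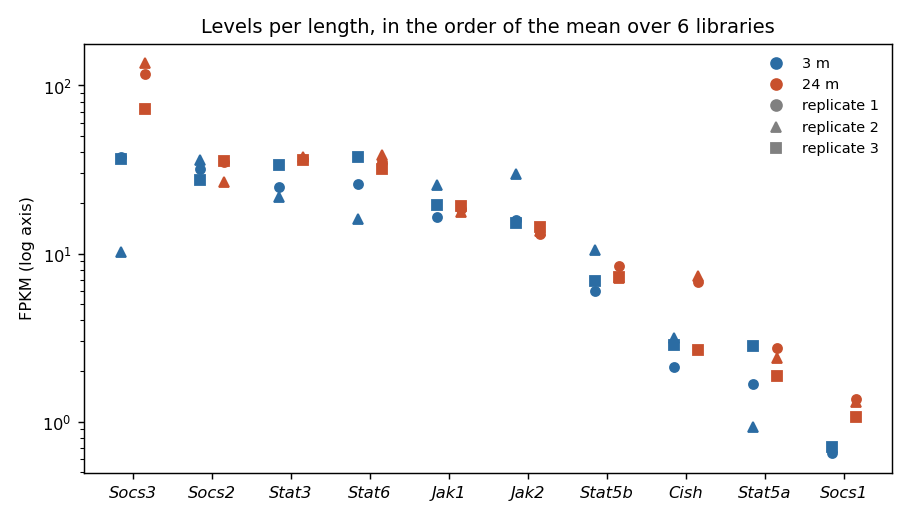
FPKM (log axis) of the 10 genes, ordered by their mean over the 6 libraries, with 1 point per library (blue, 3 m; orange, 24 m; marker shape, replicate). *Socs3* spans 10.2 to 135 FPKM and *Socs1* reaches 1.36 FPKM at most; the *Socs1* value of 0 in replicate 2 at 3 m cannot be drawn on a log axis.

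Between the ages, *Socs3* had the largest ratio of means among the 10 genes, *Socs1*, *Cish*, *Stat3*, *Stat6* and *Stat5a* also had higher means at 24 m, and *Jak2*, *Jak1*, *Stat5b* and *Socs2* had lower ones. A gene was called where the adjusted p (Benjamini-Hochberg) was under 0.05 and the log2 fold change was above 1 in size. With all 6 libraries and edgeR's quasi-likelihood test, 0 of the 10 genes were called, as were 0 of all 14899 genes tested (0%), of which 873 had an unadjusted p under 0.05. By DESeq2, 1 of the 10, *Socs3*, was called higher, where 1.59% of the 17978 genes with an adjusted p were called higher and 0.156% lower. Without replicate 2 at 3 m edgeR also called *Socs3* alone among the 10, where 0.506% of 16216 genes were called higher and 0.0185% lower.

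The CPM ranges of the ages did not overlap for 4 of the 10 genes, 3 higher at 24 m (*Stat3*, *Socs1* and *Socs3*) and 1 lower (*Jak2*), where 9.74% of all genes tested were apart in the higher direction and 5.41% in the lower. *Socs3* and *Cish* had an unadjusted p under 0.05 in edgeR, both in the higher direction, in which 3.56% of all genes did. None of the 10 did in the lower direction, against 2.3% of all genes. The median log2 fold change of the 10 genes was 0.33 and 6 were above 0, while the median of all genes tested was 0.05, with 53.8% above 0. Without replicate 2 at 3 m these medians were 0.16 and 0.03.

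**Figure D2:**
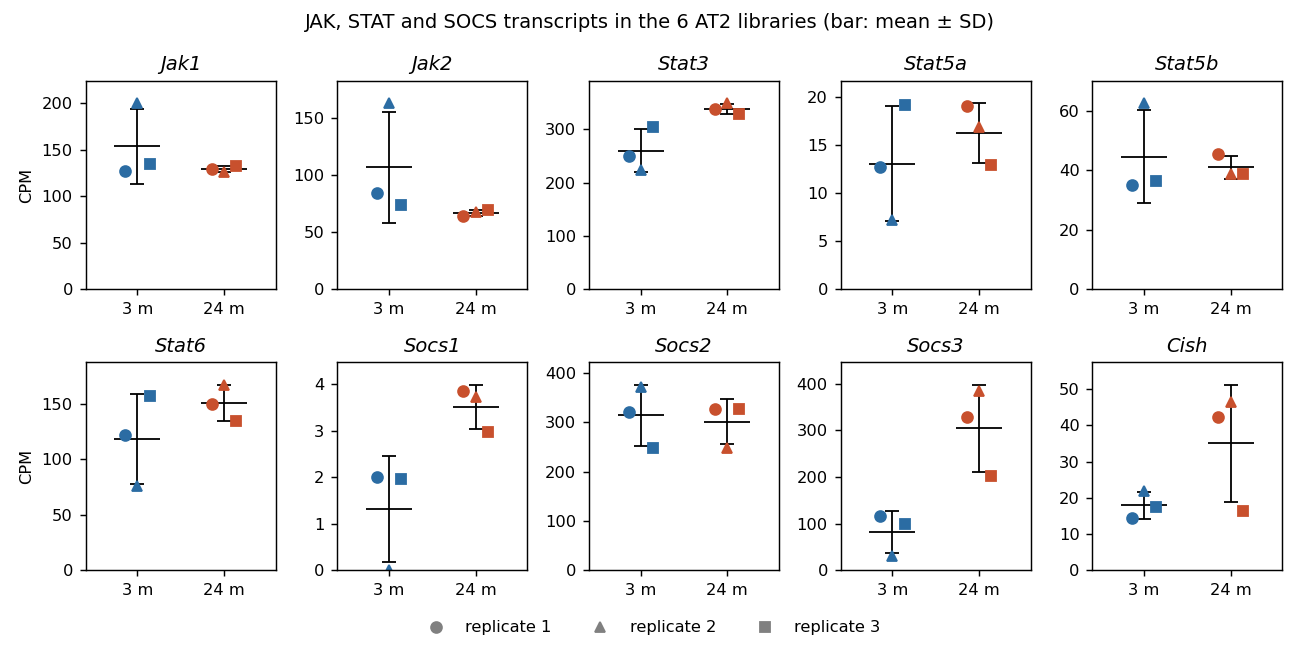
CPM of each gene in the 6 libraries (blue, 3 m; orange, 24 m; marker shape, replicate; black bar, mean ± SD, n = 3), each panel from 0. The ages are apart for *Jak2*, *Stat3*, *Socs1* and *Socs3*, and replicate 2 at 3 m is at an extreme of the 6 libraries in every panel but that of *Cish*.

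Among the kinases, *Jak1* (ENSMUSG00000028530, chromosome 4), which encodes the kinase shared by interferon, gamma chain and gp130 receptors, was at 127, 200.1 and 134 CPM at 3 m and at 129.65, 126 and 133 CPM at 24 m. Apart from replicate 2 at 3 m, all libraries lay between 126 and 134 CPM and the ages overlapped. The log2 fold change of *Jak1* was -0.25 ± 0.25 (SE; edgeR adjusted p = 0.871), and -0.01 ± 0.16 without that library.

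*Jak2* (ENSMUSG00000024789, chromosome 19), the kinase of the growth hormone, GM-CSF and IFN-γ receptors, was at 84.0, 163 and 73.3 CPM at 3 m and at 64.4, 67.1 and 69.7 CPM at 24 m. The aged libraries were all lower than the young ones, but the gap between the nearest libraries was small beside the spread at 3 m. Its change was a log2 fold of -0.67 ± 0.33 (edgeR adjusted p = 0.828), and it was -0.23 ± 0.17 without replicate 2 at 3 m (adjusted p = 0.747). The ratio of *Jak1* to *Jak2* in FPKM was 1.05, 0.855 and 1.27 at 3 m and 1.40, 1.30 and 1.33 at 24 m. The libraries of the ages were apart in this ratio only narrowly, at 1.27 against 1.30. As *Jak2* alone was already apart, the ratio is no further result.

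Of the STATs, *Stat3* (ENSMUSG00000004040, chromosome 11) had the highest mean FPKM at 24 m, 36.5 ± 0.765, close to the 35.2 ± 3.47 of *Stat6*, which was above it in replicate 2. It was at 250.2, 224 and 304 CPM at 3 m and at 337, 349 and 329 CPM at 24 m. All 3 aged libraries were above all young ones, and the aged ones lay close together, with an SD of 10.1 CPM against 40.4 CPM at 3 m. The difference was a log2 fold change of 0.38 ± 0.22 (edgeR adjusted p = 0.828; DESeq2 adjusted p = 0.636), and 0.29 ± 0.17 without replicate 2 at 3 m (edgeR adjusted p = 0.629). It did not pass the test in any fit.

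*Stat5a* (ENSMUSG00000004043) and *Stat5b* (ENSMUSG00000020919) lie next to each other and next to *Stat3* on chromosome 11 in the RefSeq table and encode near-identical proteins. Of the 3739 stretches of 150 bases, the read length, in the longest *Stat5a* transcript of GENCODE vM21, 4.68% occur unchanged in *Stat5b* transcripts, and 15.8% of its stretches of 50 bases do. How reads that map to both were counted is not given in the sources used here, so a part of either count could belong to the other gene. *Stat5a* was at 12.7, 7.19 and 19.2 CPM at 3 m and at 19.0, 16.8 and 12.9 CPM at 24 m. *Stat5b* was at 35.0, 62.6 and 36.3 CPM at 3 m and at 45.4, 38.8 and 38.8 CPM at 24 m. The ages overlapped for both genes, and in replicate 2 at 3 m *Stat5a* was at its lowest and *Stat5b* at its highest. For *Stat5a* the log2 fold change was 0.32 ± 0.41 (edgeR adjusted p = 0.900), and 0.02 ± 0.28 without that library. That of *Stat5b* was -0.12 ± 0.29 (edgeR adjusted p = 0.947) and turned to 0.20 ± 0.18 without that library, so it has no stable direction.

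*Stat6* (ENSMUSG00000002147, chromosome 10), the STAT of IL-4 and IL-13, was at 122, 76.5 and 157 CPM at 3 m and at 149.6, 167 and 135 CPM at 24 m. Replicate 3 at 3 m lay among the aged libraries, and the ages overlapped. The log2 fold change was 0.35 ± 0.30 (edgeR adjusted p = 0.858), and 0.11 ± 0.18 without replicate 2 at 3 m.

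Fold changes of the suppressors ranged from -0.06 to 1.88 on the log2 scale, those of the kinases and STATs from -0.67 to 0.38. *Socs3* (ENSMUSG00000053113, chromosome 11), the suppressor that binds gp130 and the JAK that sits on it and that STAT3 induces, was at 116, 31.8 and 100.4 CPM at 3 m and at 328, 383 and 201 CPM at 24 m. The lowest aged library, replicate 3, was well above the highest young one, and replicate 2 at 3 m was the lowest of all. The means were 82.7 ± 44.7 CPM at 3 m and 304 ± 93.4 CPM at 24 m, a ratio of 3.68, or 2.81 without replicate 2 at 3 m. On the log2 scale the fitted fold change was 1.88 ± 0.48.

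For *Socs3* the call depended on the fit while the direction did not. edgeR on all libraries gave an unadjusted p of 0.00397 and an adjusted p of 0.469, at place 126 of 14899 genes by p. DESeq2 gave 1.88 ± 0.48 and an adjusted p of 0.0110. edgeR without replicate 2 at 3 m gave 1.49 ± 0.26 and an adjusted p of 0.0301. Without replicate 3 at 24 m, the aged library with least *Socs3*, edgeR gave 2.10 and an adjusted p of 0.635. Over the 14 alternatives its log2 fold change was between 1.49 and 2.20, and *Socs3* was called in 4 of them.

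*Socs1* (ENSMUSG00000038037, chromosome 16), a suppressor that blocks JAK1, JAK2 and TYK2 and is induced by interferons, was near the lower end of what these libraries measure. It had 58, 0 and 62 counts at 3 m and 114, 111 and 100 counts at 24 m, or 2.00, 0 and 1.96 CPM and 3.85, 3.72 and 2.97 CPM. The count of 0 in replicate 2 at 3 m allows a level of up to 0.107 CPM (3 counts, for counting error only), and *Socs1* is 1 of the 693 genes described above as missing from that library alone. All aged libraries were above all young ones, also without that library. With all libraries the log2 fold change was 1.41 ± 1.31 (edgeR adjusted p = 0.859; DESeq2 adjusted p = 0.731), and 0.83 ± 0.56 without replicate 2 at 3 m (edgeR adjusted p = 0.703). It did not pass the test in any fit.

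*Cish* (ENSMUSG00000032578, chromosome 9), the suppressor that STAT5 induces, was at 14.5, 21.8 and 17.5 CPM at 3 m and at 42.2, 46.4 and 16.5 CPM at 24 m. Replicates 1 and 2 at 24 m were above every young library, and replicate 3 at 24 m was inside the young range. Its log2 fold change was 0.97 ± 0.41 (edgeR unadjusted p = 0.0435, adjusted p = 0.828; DESeq2 adjusted p = 0.465). Without replicate 2 at 3 m it was 1.13 ± 0.37 (edgeR adjusted p = 0.293), and without replicate 3 at 24 m it was 1.30 (edgeR adjusted p = 0.646). The ratio of *Cish* to *Stat5b* in FPKM was 0.357, 0.301 and 0.416 at 3 m and 0.802, 1.03 and 0.368 at 24 m, with the same aged library inside the young range.

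*Socs2* (ENSMUSG00000020027, chromosome 10), the suppressor of growth hormone signaling, was at 321, 373 and 249 CPM at 3 m and at 327, 248 and 328 CPM at 24 m. The ages overlapped over nearly their whole range. The log2 fold change was -0.06 ± 0.25 (edgeR adjusted p = 0.966) and 0.08 ± 0.20 without replicate 2 at 3 m, so no direction can be given. The ratio of *Socs3* to *Socs2* in FPKM was 1.19, 0.282 and 1.33 at 3 m and 3.31, 5.09 and 2.02 at 24 m, and the ratio of *Socs3* to *Stat3* was 1.52, 0.467 and 1.09 at 3 m and 3.20, 3.62 and 2.02 at 24 m. In both ratios all aged libraries were above all young ones, as they were for *Socs3* itself.

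**Figure D3:**
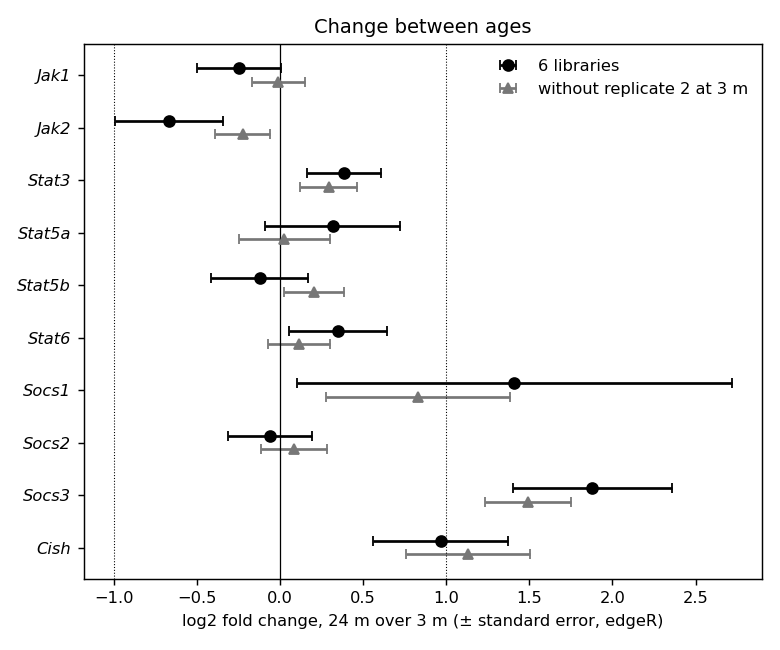
Log2 fold change (24 m over 3 m, ± SE, edgeR) of the 10 genes with all 6 libraries (black circles) and without replicate 2 at 3 m (grey triangles); dotted lines mark a log2 fold change of 1 in either direction. *Socs3* is beyond 1 in both fits, at 1.88 and 1.49, and the values of *Jak1*, *Jak2*, *Stat5a* and *Stat6* lie nearer to 0 without that library.

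Across the 6 libraries the genes described here varied together to a degree that depended on replicate 2 at 3 m. Pearson's r of log2 CPM was 0.95 for *Jak1* with *Jak2* and -0.10 over the 5 other libraries. *Socs1* and *Socs3* had r = 0.89 over 6 libraries and 0.99 without that one, and *Socs3* and *Cish* had 0.59 and 0.90. *Jak2* and *Stat3* had -0.89 and -0.97. These pairs are examples, and others weakened or turned without that library. *Stat5a* and *Socs3* had 0.78 and 0.24, *Jak1* and *Socs1* had -0.99 and -0.34, and *Jak2* and *Stat5b* had 0.79 and -0.84. These values describe 6 libraries of 2 ages, which share the difference between the ages, and were not tested. The SD was larger at 3 m than at 24 m for 8 of the 10 genes, all but *Socs3* and *Cish*.

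The genes whose log2 CPM was most like that of *Socs3* over the 6 libraries, among 8516 genes with a mean of at least 10 CPM, were *H2-D1* (r = 0.998), *Nr4a1* (r = 0.997) and *Pim1* (r = 0.995). *H2-D1*, a classical MHC class I gene, was at 991, 447 and 868 CPM at 3 m and at 1881, 2094 and 1484 CPM at 24 m. *Nr4a1*, an immediate early gene, was at 211, 13.8 and 146 CPM at 3 m and at 1068, 1536 and 508 CPM at 24 m. *Pim1*, a kinase gene induced by STAT3 and STAT5, was at 33.3, 8.76 and 26.2 CPM at 3 m and at 71.5, 87.0 and 42.7 CPM at 24 m. All 3 had the order of libraries that *Socs3* had, with replicate 2 at 24 m highest and replicate 2 at 3 m lowest. They were picked by likeness to *Socs3* over these same libraries, so the shared order comes with the choice and is no further result.

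Of the pathway's other genes, 20 further kinases, STATs, SOCS genes and inhibitors were tested. By edgeR and by DESeq2, 0 of the 20 were called, and 0 had an unadjusted edgeR p under 0.05. *Jak3* was at 35.8, 15.5 and 35.5 CPM at 3 m and at 52.4, 52.2 and 41.8 CPM at 24 m (log2 fold change 0.75 ± 0.35, or 0.45 ± 0.19 without replicate 2 at 3 m), and *Stat2* was at 29.4, 17.7 and 33.1 CPM at 3 m and at 44.5, 36.7 and 36.8 CPM at 24 m (0.56 ± 0.30, or 0.33 ± 0.19). For both, all aged libraries were above all young ones. The ages were apart in this direction for 3 of the 20 (*Jak3*, *Stat2* and *Usp18*), where 9.74% of all genes tested were. In the lower direction 0 of the 20 were apart, against 5.41% of all genes tested. Of *Socs4*, *Socs5*, *Socs6* and *Socs7*, 1 was above 0 and their median log2 fold change was -0.40, which became 0.01 without replicate 2 at 3 m.

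Of 43 listed receptor chains of the pathway, 27 were tested, 17 of them above 0, with a median log2 fold change of 0.45 (0.36 without replicate 2 at 3 m). By edgeR 0 were called. DESeq2, which was run without that filter on low counts and so also tested *Il21r*, called *Il10ra*, *Il21r* and *Lepr* higher, named here after their values were seen. None of the 3 had a count at 3 m, and none was above 3.32 CPM in any 24 m library. Within the 24 m group *Il10ra* and *Il21r*, like *Ptprc*, were highest in replicate 2 and lowest in replicate 3, while *Lepr* was highest in replicate 1. The part of leukocytes in these levels was not tested. *Il6st*, the gp130 chain that IL-6 family receptors share and that SOCS3 binds, was at 177, 401 and 270.4 CPM at 3 m and at 211, 236 and 249 CPM at 24 m, with a log2 fold change of -0.29 ± 0.31 that turned to 0.05 ± 0.21 without replicate 2 at 3 m. *Il4ra*, the receptor chain upstream of STAT6, was at 42.3, 41.6 and 48.4 CPM at 3 m and at 63.1, 77.8 and 47.7 CPM at 24 m (0.51 ± 0.26; edgeR unadjusted p = 0.0793). *Crlf2*, a chain of the thymic stromal lymphopoietin receptor, was at 4.16, 0 and 3.70 CPM at 3 m and at 14.9, 14.7 and 17.6 CPM at 24 m, and was called higher without replicate 2 at 3 m (edgeR adjusted p = 0.0175) but not with it (adjusted p = 0.828).

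Cytokine ligands were low in these sorted cells. Of 34 listed, 23 had a row and 10 passed the filter, 5 above 0 with a median log2 fold change of -0.27 (-0.19 without replicate 2 at 3 m). *Il6*, the ligand upstream of gp130 and *Stat3*, was at 0, 0.783 and 0 CPM at 3 m and at 2.77, 11.0 and 1.58 CPM at 24 m. All aged libraries were above all young ones. *Il6* was called higher by edgeR without replicate 2 at 3 m (adjusted p = 0.0275) and not by edgeR or DESeq2 on all libraries (adjusted p = 0.828 and 0.154). The library left out held the only young counts of *Il6*. Without it the young level was 0, and the fitted log2 fold change went from 4.28 to 10.30. Within the 24 m group *Il6*, like *Ptprc*, was highest in replicate 2 and lowest in replicate 3. The part of leukocytes in the *Il6* level was not tested. DESeq2 called 1 ligand of the list higher, *Osm*. It was without a count in the young libraries and at 0.0338, 4.46 and 0.268 CPM in the aged ones. Its level rested on replicate 2, where *Ptprc* was also highest, and the part of leukocytes in it was not tested. *Ctf1*, another ligand listed, was at 13.3, 24.3 and 12.8 CPM at 3 m and at 10.4, 11.0 and 8.09 CPM at 24 m. Its aged libraries all lay below the young ones (log2 fold change -0.77 ± 0.37, or -0.40 ± 0.27 without replicate 2 at 3 m). *Il7* had -1.13 ± 0.66, or 0.025 ± 0.38 without that library, and *Lif* had 2.11 ± 1.02, or 2.85 ± 0.95. *Lif* also had the order of *Ptprc* within the 24 m group, and the part of leukocytes in its level was not tested.

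**Figure D4:**
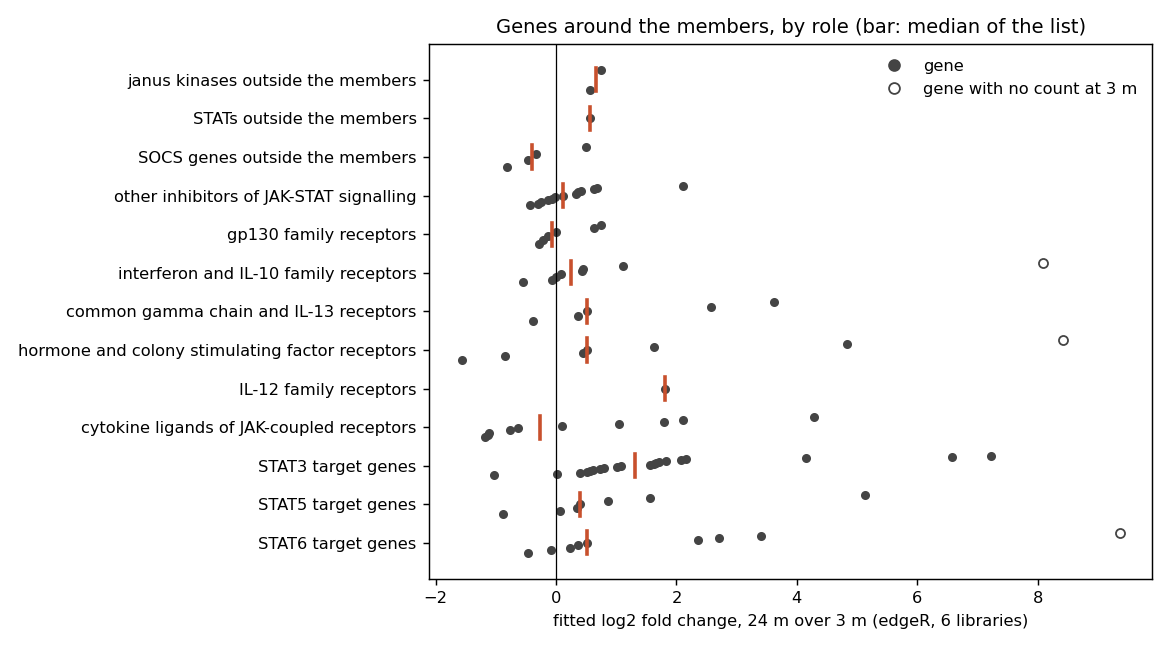
Fitted log2 fold change (24 m over 3 m, edgeR, 6 libraries) of the tested genes of each list around the 10 described genes, 1 point per gene, open where no 3 m library had a count, with the list's median as a bar. The median of the STAT3 targets is 1.32, and those of the kinase, STAT, SOCS, inhibitor and gp130 receptor lists are between -0.40 and 0.66. The highest bar, 1.81, is that of the IL-12 family receptors, with 1 tested gene. The STAT list also has 1 tested gene and the kinase list 2.

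Genes that STATs are known to induce were read in the same way, in lists that hold none of the 10 genes. Of 20 tested STAT3 targets, 19 were above 0, all but *Hif1a*, with a median log2 fold change of 1.32 (0.97 without replicate 2 at 3 m), and the ages were apart in the higher direction for 12, where 9.74% of all genes were. By edgeR 0 were called, and 11 had an unadjusted p under 0.05 in that direction, where 3.56% of all genes did. The list was chosen with earlier results of these data known, so these counts describe it and are no independent comparison with all genes. DESeq2 called *Myc* and *Saa3* higher, and edgeR without replicate 2 at 3 m called *Reg3g* higher. *Myc* and *Saa3* had the order of *Ptprc* within the 24 m group, while *Reg3g* did not. The part of leukocytes in these levels was not tested. *Reg3g*, an antibacterial lectin, was at 0, 0 and 0.854 CPM at 3 m and at 12.9, 51.6 and 20.1 CPM at 24 m, and *Myc* was at 2.34, 3.10 and 4.49 CPM at 3 m and at 12.0, 23.3 and 6.60 CPM at 24 m. *Fgg*, a fibrinogen chain, was at 4.09, 4.34 and 1.49 CPM at 3 m and at 16.5, 11.1 and 7.82 CPM at 24 m and did not pass the test in edgeR (adjusted p = 0.649).

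Targets of STAT5 and STAT6 had lower medians, 0.40 over 7 genes and 0.51 over 9 genes (0.52 and 0.47 without replicate 2 at 3 m). Of these genes 6 and 7 were above 0, and 0 were called by edgeR in either list. The lists are not separate, as the STAT3 list shares *Pim1* and *Bcl2l1* with that of STAT5 and *Il4ra* with that of STAT6. With all libraries, the medians of the STAT5 and STAT6 lists were the values of *Bcl2l1* and *Il4ra*. Among STAT5 targets, DESeq2 called *Oas1a* and *Osm* higher, while the cyclin gene *Ccnd2*, at 25.7, 65.4 and 53.8 CPM at 3 m and 29.9, 19.0 and 29.7 CPM at 24 m, had a log2 fold change of -0.88 ± 0.38 (-0.60 ± 0.31 without replicate 2 at 3 m). *Oas1a* had the order of *Ptprc* within the 24 m group, and the part of leukocytes in its level was not tested. Among STAT6 targets, DESeq2 called *Chil3*, *Fcer2a* and *Muc5ac* higher. *Chil3* and *Fcer2a* had the order of *Ptprc* within the 24 m group, and the part of leukocytes in their levels was not tested. *Muc5ac*, a mucin of airway goblet cells, was without a count in the young libraries and at 1.35, 4.63 and 2.14 CPM in the aged ones, which is at least 80.0-fold higher when set against 3 counts over the young libraries. It stands beside airway secretory and ciliated markers, of which 9 of 9 were above 0 with a median of 1.70, and the part of such cells in its level was not tested.

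Other groups of genes moved across the same libraries as *Socs3*. Over 24 immediate early and heat shock genes, 23 were above 0 with a median log2 fold change of 1.71 (1.28 without replicate 2 at 3 m), and their summed level was 3624 to 10191 CPM at 3 m and 11995 to 22712 CPM at 24 m. The list shares *Junb* with the STAT3 targets and holds *Nr4a1*. All 12 tested leukocyte markers were above 0, with a median of 3.84, beside the summed levels given above. Within the 24 m group *Socs3*, the immediate early and heat shock sum and the leukocyte sum were all highest in replicate 2 and lowest in replicate 3. Without replicate 2 at 3 m the *Socs3* ratio was 2.81, as given above, and the part of leukocytes and of the immediate early and heat shock genes in it was not tested.

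**Figure D5:**
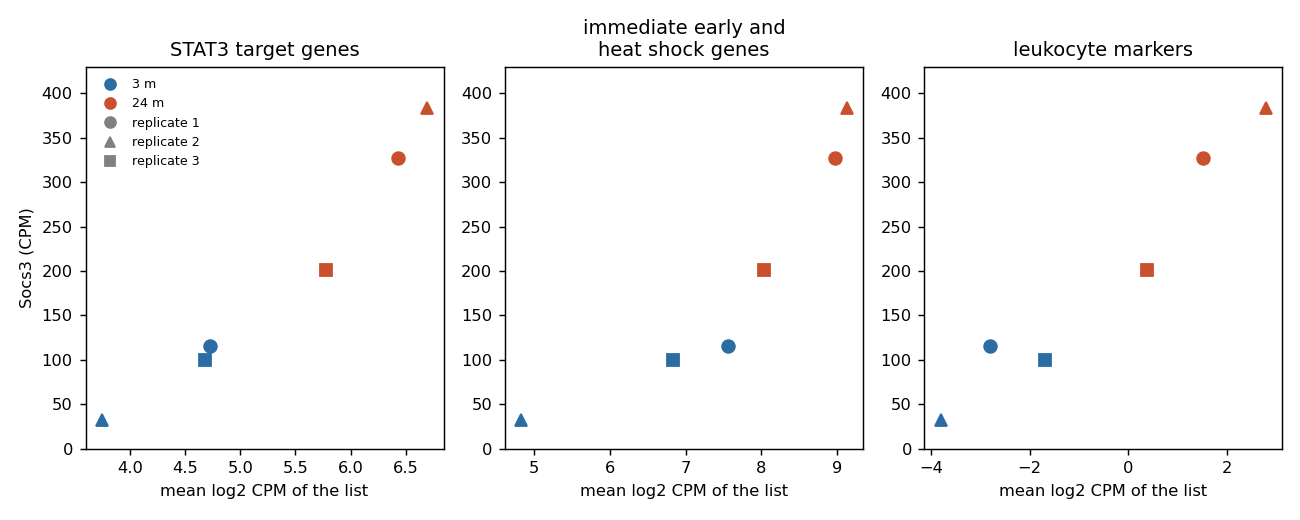
*Socs3* (CPM) against the mean log2 CPM of the tested STAT3 targets, immediate early and heat shock genes and leukocyte markers, 1 point per library (blue, 3 m; orange, 24 m; marker shape, replicate). *Socs3* is at 31.8 to 116 CPM in the young and 201 to 383 CPM in the aged libraries, and in each panel replicate 2 at 3 m is at the lower left and replicate 2 at 24 m at the upper right.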

How the data were processed

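RNA was sequenced as paired-end reads of 150 bases from sorted AT2 cells in 6 libraries. The deposited counts are those of the authors, whose processing notes name HISAT2, featureCounts, DESeq2 and GRCm39 without versions, and hold whole reads per gene with no normalization. The deposited FPKM values were computed by the authors from gene lengths that are not stated, and were used only to compare levels between genes and for ratios. Strand setting and treatment of reads that map to several genes are not given in the sources used here, so reads of overlapping or antisense genes cannot be told apart.

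Counts were analysed with edgeR 4.0.16, limma 3.58.1 and DESeq2 1.42.0 in R 4.3.3. filterByExpr kept 14899 of 24224 genes. TMM factors scaled the libraries, and the ages were compared over all genes with edgeR's quasi-likelihood test, without a block, and p-values were adjusted over all genes tested. The SE of an edgeR log2 fold change is its size divided by the square root of F. log2 CPM had a prior count of 1. Where an age had no count, the fold is a lower bound at 3 counts over that age, which is 0.0338 CPM at 3 m. The tests were checked on simulated data.

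The 10 genes and the lists of receptors, ligands, STAT targets, inhibitors and markers were chosen with earlier results of these data known. Named are the 10 genes, from each list up to 4 genes with the smallest edgeR p and a mean of at least 1 CPM, the genes of the sort, *Sftpc*, and the 3 genes most like a member that edgeR or DESeq2 called. *Hif1a* and genes that only DESeq2 called, among them *Il10ra*, *Il21r*, *Lepr* and *Osm*, were named after their values were seen. Alternatives tried were limma-voom, DESeq2, RLE factors, library totals alone, other filters, no limit on the fold, the replicate block and each library left out. DESeq2 without replicate 2 at 3 m, and the list counts without it, were added after seeing the data. 1 item is not reported here.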

Additional observations from a re-analysis of the deposited data

How the results depend on the processing

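Of 140 alternative fold changes of the 10 genes, 130 kept their direction and side of the threshold, 4 passed it (all *Socs3*) and 6 reversed. *Stat5b* turned to 0.20 without replicate 2 at 3 m in edgeR and in DESeq2 (0.1958), with -0.26 to 0.20 over the libraries left out in turn. *Socs2* turned to 0.0342 with library totals alone, to 0.0828 without replicate 2 at 3 m in edgeR, to 0.07 in DESeq2 (0.0740) and to 0.0708 without replicate 2 at 24 m, with -0.20 to 0.08 over the libraries left out. The cause was not tested. *Socs3* was the 1 member called by DESeq2, by edgeR with no filter, and without replicate 2 at 3 m by edgeR and by DESeq2, an alternative chosen after seeing the data, and 0 to 1 members were called over the libraries left out. Over all genes, 0 were called in edgeR (873 at an unadjusted p under 0.05) and in limma-voom, 314 by DESeq2, 207 by edgeR with no filter, 455 by DESeq2 without replicate 2 at 3 m, and 0 to 85 in edgeR over the libraries left out. The number of members whose ages were apart was 4 with library totals, RLE factors and FPKM, and 4 to 6 over the libraries left out, where fewer libraries are compared.

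With the replicate block, 0 members were called and *Socs3* had a log2 fold change of 2.00. Deviations of same-numbered libraries from the age means had r = 0.01, -0.04 and -0.08, so the numbers were not taken as pairs.

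The data are 3 libraries per age from pooled mice, at similar depth, gated in 1 way. *Socs1*, at 0 to 114 counts, is the member that depth limits most, and the small folds of *Stat3*, *Stat6* and *Jak1* are within 2 SE of 0. RNA levels say nothing of the phosphorylation of JAKs or STATs.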

Other observations

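Further lists were read only to describe the libraries. Of 11 AT2 markers, 2 were above 0 with a median log2 fold change of -0.14 (-0.23 without replicate 2 at 3 m), and *Cxcl15* was at 13922, 21615 and 9073 CPM at 3 m and at 7908, 7334 and 9500 CPM at 24 m. Of 8 AT1 markers, 7 were above 0 with a median of 0.36 (0.55 without that library), of 7 endothelial markers 6 with a median of 2.41 (1.83), and of 5 stromal markers 4 with a median of 0.48 (1.40). The 7 genes listed for the sort mix *Ptprc* and *Pecam1*, selected against, with *Epcam* and MHC class II genes, selected for. They also hold *Cd74*, which was not stained. All 7 were above 0, with a median of 0.85 (0.55) that mixes these kinds. *Ptprc* was at 6.22, *Pecam1* at 0.89 and *Epcam* at 0.04. Among them *H2-Ab1*, an MHC class II gene, was at 525, 225 and 477 CPM at 3 m and at 724, 999.7 and 743 CPM at 24 m, and *Pecam1*, which encodes CD31, averaged 1.79 ± 1.34 CPM in the young and 3.31 ± 2.24 CPM in the aged libraries (SD, n = 3). By edgeR's quasi-likelihood test 0 genes of these lists were called, while DESeq2 called higher 2 endothelial markers, *Cdh5* and *Vwf*, and 1 gene of the sort, *Ptprc*.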
